A study of Mus musculus with 576 samples.

Results

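The granins and the prohormone processing genes were followed here through single cells of the mouse dorsal pancreas at embryonic day 12.5. The 10 genes, taken by symbol, were Chga, Chgb, Scg2, Scg3, Scg5, Pcsk1, Pcsk2, Pcsk1n, Cpe and Ptprn, and all 10 were found among the 36658 gene identifiers of each count table. Libraries were made by Smart-seq2 from 576 GFP+ sorted cells of 3 lines on a C57BL/6J background, with 2 plates of 96 wells for each line. In the Nkx2.5-Cre;mTmG and Nkx3.2-Cre;mTmG lines, a Cre placed in the locus of a transcription factor of the splanchnic mesoderm switches on membrane GFP from the R26mTmG reporter, so that GFP marks cells that once expressed the driver and all their descendants. In the Prox1-GFP line, EGFP is driven from a Prox1 bacterial artificial chromosome and marks cells in which that transgene is active. No treatment was given to any line, embryos of both sexes were used, and the comparison drawn from these lines sets the Prox1-GFP epithelium against mesenchyme of each line. The labels name no embryo or litter, so each line was 1 sample, cells were not taken as replicates, and no test between lines or classes was possible.

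Dense-core granules are the stores from which endocrine cells and neurons release peptides on demand. Granins (Chga, Chgb, Scg2, Scg3) are acidic proteins that condense inside these granules, and Scg3 also ties Chga to the granule membrane. Prohormones are cut within the granule by the convertases PC1/3 (Pcsk1) and PC2 (Pcsk2), and carboxypeptidase E (Cpe) then trims the basic residues left at the cut ends. The protein 7B2 (Scg5) escorts PC2 and allows it to become active, proSAAS (Pcsk1n) inhibits PC1/3, and IA-2 (Ptprn) spans the granule membrane. In the pancreas the set is known from the hormone-producing islet cells, which arise from epithelial progenitors that pass through a Neurog3 state.

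The genes are spread over several chromosomes, with positions given in GENCODE M21 on GRCm38. On chromosome 2 lie Chgb (132781278 to 132795079, plus strand), Scg5 (113776362 to 113829121, minus) and Pcsk2 (143546156 to 143816285, plus), and on chromosome 1 Scg2 (79434669 to 79440120, minus) and Ptprn (75247027 to 75264502, minus). Chga lies on chromosome 12 (102554969 to 102565028, plus), Scg3 on chromosome 9 (75643189 to 75684056, minus), Pcsk1 on chromosome 13 (75089826 to 75134861, plus), Cpe on chromosome 8 (64592542 to 64693054, minus) and Pcsk1n on chromosome X (7919822 to 7924410, plus).

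Several of the genes share a short element ahead of their start sites. The RefSeq promoter table (GRCm38.p6, 250 bases before to 50 after each start site) held entries for 9 of the 10 genes, all except Cpe. The letters TGACGTNA, which include the palindrome TGACGTCA known as the cAMP response element, were found on either strand in 4 of these 9 genes and in 2.93% of all 32851 promoters in the table. The exact palindrome stood in 3 of the 9 and in 1.79% of all promoters. The letters CAGATG were in none of the 9 genes and in 17.2% of all promoters, and TATAAA in 1 and 13.6%. The 30 bases around each match to TGACGTNA are given 5′ to 3′ on the strand of the gene, with the match in capitals, since they belong to the genes with the widest difference between endocrine cells with and without glucagon transcripts (Chgb, Pcsk1) and to 2 further granins.
Scg2: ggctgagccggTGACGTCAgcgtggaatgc
Chgb: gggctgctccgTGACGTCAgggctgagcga
Pcsk1: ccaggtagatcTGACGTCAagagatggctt
Chga: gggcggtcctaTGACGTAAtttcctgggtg
The Scg2 stretch lies at chr1:79440076-79440105 on the minus strand, and the Chgb stretch at chr2:132781559-132781588, the Pcsk1 stretch at chr13:75089768-75089797 and the Chga stretch at chr12:102554886-102554915 on the plus strand. The match starts 68 bases before the RefSeq start site of Scg2, 72 before that of Chgb, 78 before that of Pcsk1 and 44 before that of Chga. In GENCODE M21, whose transcripts of Scg2 and Chgb begin further upstream, the matches of these 2 genes fall within a first exon, and those of Pcsk1 and Chga lie outside exons. The same 9 genes were searched on both strands for the core of the RE1 element, which the repressor Rest binds, with up to 2 mismatches. No match was found in their windows, and 1.92% of all promoters held one. These are matches of letters and not measured binding.

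After filters on genes, counts and mitochondrial share, 549 of 576 cells were kept, and none of the 27 left out had any of the 10 genes at 10 counts. Kept cells held between 224814 and 1512740 counts. Classes were set from marker scores: the Prox1-GFP line gave 59 epithelial cells on plate 8A and 48 on plate 8B, 77 mesenchymal cells and 1 blood cell. The Nkx2.5-Cre;mTmG line gave 87 mesenchymal cells on plate 6A, 81 on plate 6B and 5 mesothelial cells, and the Nkx3.2-Cre;mTmG line 92 on plate 7A, 77 on plate 7B and 22 mesothelial cells. Levels are summed counts of a class over its summed total, scaled to 1000000 (CPM). Intervals in brackets are 95% intervals computed from estimated read counts, or from numbers of cells for shares. Reads were counted without molecular identifiers, so the intervals of levels and ratios cover neither amplification nor the spread between cells. In epithelium 12 of 12 epithelial markers were at 5 CPM or more, with a summed level of 4880 CPM, against 15.7 CPM in Prox1-GFP mesenchyme. The same markers set the classes, so these values describe the label and are no separate check of it. Each line had its own plates and its own range of library numbers, so plate, library number and line cannot be told apart between lines. Epithelium and mesenchyme of Prox1-GFP came from the same plates.

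All 10 genes were higher in Prox1-GFP epithelium than in mesenchyme. Each stood at least 2-fold above the mesenchyme of the same plates, and over all 12362 genes at 5 CPM or more in either class 18.3% did so. The same 10 of 10 held against Nkx2.5-Cre;mTmG mesenchyme, where the share over all genes was 19.1%, and against Nkx3.2-Cre;mTmG mesenchyme, where it was 18.9%. The 3 comparisons share the epithelial cells. The median log2 ratio of the 10 genes was 8.97 against mesenchyme of the same plates, and 0.02 over all genes tested.

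Among the granins, Chgb was the highest in epithelium, at 788 CPM (782 to 793), with 994 CPM on plate 8A and 570 CPM on plate 8B. On 8B 1 cell, C1, held 80.6% of its counts, and the level without that cell was 113.3 CPM, below the 237 CPM of Chga on that plate. In Prox1-GFP mesenchyme it had 2 counts in all, a ratio of 23225 with an interval from 6429 to 191777, in Nkx2.5-Cre;mTmG mesenchyme it had none, and in Nkx3.2-Cre;mTmG mesenchyme it stood at 0.62 CPM, from 2 cells. Chga reached 205 CPM (202 to 208) in epithelium and 0.052 CPM, 0.86 CPM and 0.048 CPM in mesenchyme of the Prox1-GFP, Nkx2.5-Cre;mTmG and Nkx3.2-Cre;mTmG lines. Of the Nkx2.5-Cre;mTmG counts of Chga, 88.4% came from 1 cell, and the level without it was 0.10 CPM. Scg3 stood at 108.4 CPM and Scg2 at 30.5 CPM in epithelium, with 1 count each in Prox1-GFP mesenchyme and none in mesenchyme of the other lines. In mesenchyme, granins were thus near or at 0 in every line.

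Both convertases were near or at 0 in mesenchyme as well. Pcsk1 had 63.3 CPM (61.6 to 64.9) in epithelium and not a single count in the 414 mesenchymal cells, at least 1244-fold higher than in mesenchyme of the same plates, with the mesenchyme set at a floor of 3 counts. Pcsk2 reached 249 CPM (246 to 252) in epithelium, against 0.84 CPM, 2.06 CPM and 1.41 CPM in mesenchyme of the Prox1-GFP, Nkx2.5-Cre;mTmG and Nkx3.2-Cre;mTmG lines. Single counts of Pcsk2 were spread widely, over 28.6% of Prox1-GFP mesenchymal cells and 46.6% of the epithelial cells outside the endocrine cluster described next, so a share of cells with a count of this gene does not mark expression. At 10 counts or more, Pcsk2 was found in 19 epithelial cells (17.8%, 11.04 to 26.3) and in none of the 77 Prox1-GFP mesenchymal cells, which allows a share of up to 3.896%. It was also at 10 counts or more in 4 Nkx2.5-Cre;mTmG and 3 Nkx3.2-Cre;mTmG mesenchymal cells, up to 265 and 136.5 CPM, and without the highest cell of each line these levels were 1.108 CPM and 0.93 CPM.

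The partners of the convertases followed. Scg5 stood at 21.5 CPM in epithelium and had no count in Prox1-GFP or Nkx2.5-Cre;mTmG mesenchyme, with 0.48 CPM in Nkx3.2-Cre;mTmG mesenchyme. Pcsk1n stood at 143.6 CPM in epithelium and at 2.80 CPM, 0.998 CPM and 0.61 CPM in mesenchyme of the Prox1-GFP, Nkx2.5-Cre;mTmG and Nkx3.2-Cre;mTmG lines. In Nkx2.5-Cre;mTmG and Nkx3.2-Cre;mTmG 1 cell each held 56.7% and 59.8% of these counts, and the levels without it were 0.43 and 0.25 CPM. The ratio of Pcsk1n within Prox1-GFP differed between plates, 16.9 on 8A and 289 on 8B, and 3 of the 4 mesenchymal cells with 10 counts or more were on 8A. Ptprn reached 55.3 CPM in epithelium and 0.19 CPM in Prox1-GFP mesenchyme, where 1 cell held all its 11 counts, and it had none in mesenchyme of the other lines.

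Cpe was the gene that mesenchyme also carried. It stood at 564 CPM (559 to 569) in epithelium and at 51.6 CPM (49.8 to 53.5), 28.2 CPM (27.5 to 29.1) and 17.2 CPM (16.6 to 17.9) in Prox1-GFP, Nkx2.5-Cre;mTmG and Nkx3.2-Cre;mTmG mesenchyme, ratios of 10.9, 19.96 and 32.8. Plates of a line differed in this, with 36.8 and 61.6 CPM on 8A and 8B, 18.6 and 38.6 CPM on 6A and 6B, and 8.95 and 29.9 CPM on 7A and 7B, so the ranges of the lines overlapped while every plate lay below the epithelium. On 8A 1 cell held 43.5% of the counts, and the level without it was 21.5 CPM. At 10 counts or more, Cpe was found in 26 of 77 Prox1-GFP mesenchymal cells (33.8%, 23.4 to 45.4), 24 in Nkx2.5-Cre;mTmG (14.3%, 9.37 to 20.5) and 35 in Nkx3.2-Cre;mTmG (20.7%, 14.9 to 27.6). Thinned to 100000 counts per cell, the numbers of cells with a count were 26, 25 and 35. Of the other 9 genes, any was found at 10 counts or more in 20 of the 414 mesenchymal cells.

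**Figure D1:**
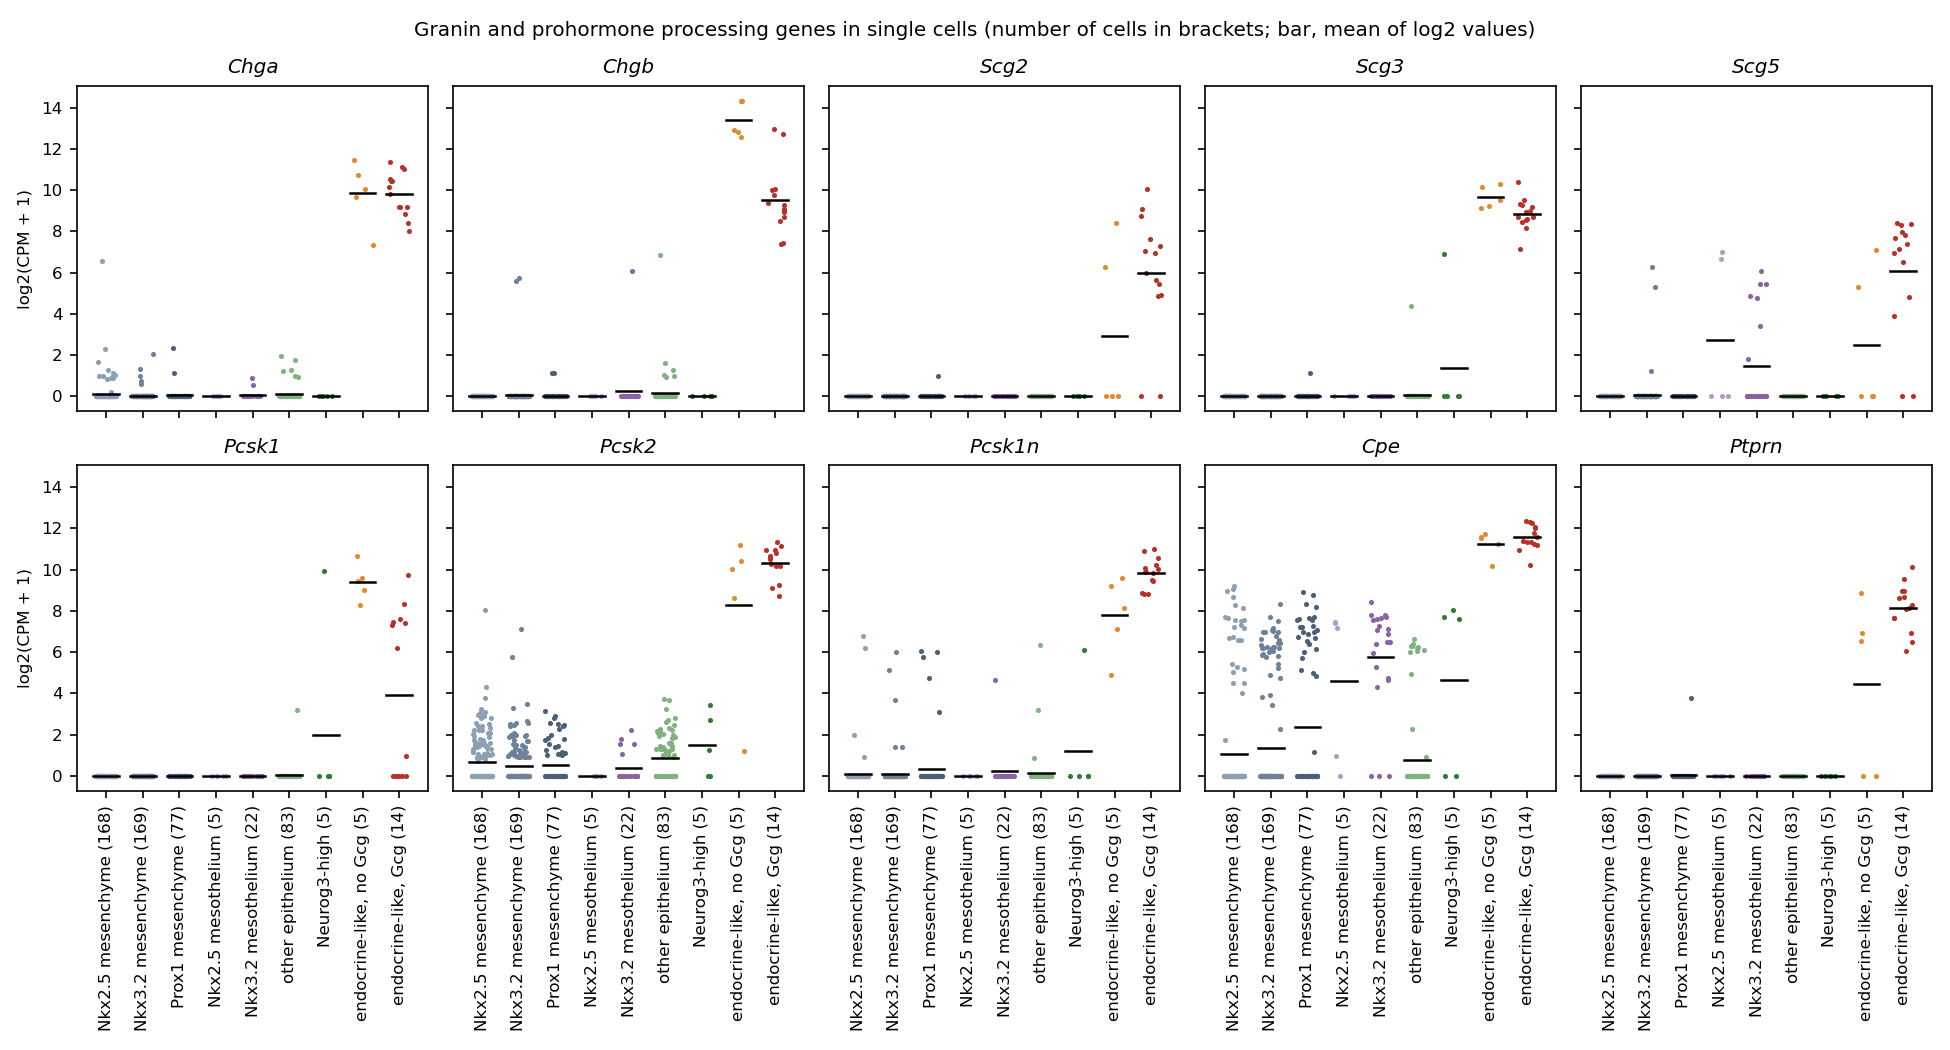
Level of each gene in single cells, as log2(CPM + 1) on the vertical axis, by class and line on the horizontal axis with the number of cells in brackets; each point is a cell and each bar the mean of the log2 values. The 19 endocrine-like cells hold most counts of every gene, though not each cell holds each gene. At 10 counts or more Pcsk1 is in 12 of them, and Scg2 and Scg5 in 14 each. Cpe is also spread through mesenchyme and mesothelium, with 26 of 77 Prox1-GFP mesenchymal cells at 10 counts or more, and Scg5 is in some mesothelial cells.

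Within the epithelium the set belonged to few cells. The epithelial cells were clustered without the 10 genes and without the secretory lists. From these clusters, the one with the highest mean score of 12 endocrine progenitor and early endocrine markers was taken. It held 19 cells, 9 on plate 8A and 10 on plate 8B. All 12 markers stood at 5 CPM or more in it (2658 CPM summed, against 252 CPM in the other 88 cells), which follows in part from that choice. The 19 cells are called endocrine-like. They held 17.5% of all epithelial counts and 100% of those of Scg2, Scg5 and Ptprn. Of the other genes they held 86.3% for Pcsk1, 97.8% for Cpe, 98.9% for Scg3 and for Pcsk1n, 99.5% for Pcsk2, 99.9% for Chgb and 99.96% for Chga. All 10 genes were at least 2-fold higher than in the other epithelial cells, as were 21.1% of all 12404 genes tested. Since the cluster was drawn from these cells, the values are a description.

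Together the 10 genes took 1.26% of all counts in endocrine-like cells, from 0.67% in the lowest cell to 3.03% in the highest, against 0.0032% in the other epithelial cells. Each endocrine-like cell held between 7 and 10 of the genes at 10 counts or more, and 6 cells held all 10. Median depth was 781278 counts in endocrine-like cells and 839829 in the others, with 8014 and 7526 genes per cell. Fewer endocrine-like cells were in S or G2/M phase by their scores, 2 of 19 against 53 of 88.

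Chgb stood at 4501 CPM (4468 to 4534) in endocrine-like cells and 1.22 CPM in the other epithelial cells, with single cells from 167.1 to 20781 CPM and a median of 861 CPM. Chga stood at 1174 CPM (1157 to 1191), from 163.9 to 2865 CPM, and 0.11 CPM in the others. Scg3 was present in 19 of 19 cells, from 139.5 to 1348 CPM. Scg2 was found in 14 of 19, up to 1059 CPM, and in none of the other 88 cells, which allows a share of up to 3.41%. Among the granins it was thus in the fewest endocrine-like cells.

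Pcsk2, with 1417 CPM (1398 to 1436), was at 10 counts or more in 18 of the 19 cells, and Pcsk1, with 312 CPM (304 to 321), in 12. Both convertases were found together in 11 cells, Pcsk2 without Pcsk1 in 7 and Pcsk1 without Pcsk2 in 1. In the other epithelial cells Pcsk1 stood at 10.5 CPM, and 776 of its 782 counts there lay in 1 Neurog3-high cell taken up later. Set against Prox1-GFP mesenchyme, these other epithelial cells had 2 of the 10 genes at 5 CPM in either class, Pcsk1, which was higher, as were 16.1% of the 12116 genes tested, and Cpe, which was lower. Pcsk1n was in all 19 cells, from 28.8 to 2082 CPM, and Scg5 in 14, up to 339 CPM. Cpe was the steadiest of the set, in 19 of 19 cells from 1149 to 5240 CPM with a median of 2997 CPM. It stood at 15.2 CPM in the other epithelial cells, below Prox1-GFP mesenchyme (0.29-fold, 0.27 to 0.31), and was at 10 counts or more in 13 of 88 of them. Ptprn, at 316 CPM, was in 17 of 19 cells and in none of the other epithelial cells, at least 7848-fold higher at a floor of 3 counts.

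Per kilobase of the longest transcript, the order in endocrine-like cells ran from Chgb (1643 CPM per kb) and Cpe (1490) through Chga (623), Pcsk1n (371), Pcsk2 (300.0) and Scg3 (257) to Scg5 (101.7), Ptprn (89.03), Scg2 (69.4) and Pcsk1 (61.97). Each gene exceeded the next in this order in 7 to 16 of the 19 cells, and differences between neighbours were not tested. Chgb, first by its summed level, exceeded Cpe in 7 of 19 cells, while Cpe exceeded Chga in 16 of 19. Scg5 exceeded Ptprn in 10 of 19 cells. With the union of exons as length, Pcsk2 and Scg3 changed places and the other 8 genes kept theirs.

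Endocrine-like cells also differed among themselves. Gcg, which encodes proglucagon, had no count in 5 of them and between 7536 and 141047 CPM in the other 14, with none between. This division, and the ones that follow, were made after the values had been seen and are descriptions. The 5 cells without Gcg, at wells C11, B5, C8 and E12 of plate 8A and C1 of plate 8B, had Chgb at 20578, 7841, 7309, 6097 and 20781 CPM. Of the 14 cells with Gcg, 12 had Chgb between 167.1 and 1056 CPM, and the other 2 had 8053 CPM (8A H4, the lowest in Gcg) and 6745 CPM (8A A1). The groups therefore overlapped through these 2 cells. Over summed counts, Chgb was 8.18-fold higher without Gcg, at 12870.2 CPM against 1573 CPM.

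Pcsk1 moved the same way. All 5 cells without Gcg held it, at 1597, 703, 511, 770 and 308 CPM in the order above, and cells with Gcg ranged from 0 to 864 CPM with a median of 36.2 CPM, so the groups overlapped. The 7 cells with Pcsk2 and without Pcsk1 all held Gcg. Summed, Pcsk1 was 4.83-fold higher without Gcg, and 1 cell, 8B E8, held 53.2% of its counts in cells with Gcg.

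Other members ran the opposite way, and 4 of 10 were at least 2-fold higher in cells with Gcg, where the share over all 11865 genes tested was 29.3%. Pcsk1n stood at 965 CPM (446 to 2082 in single cells) with Gcg and 377 CPM (28.8 to 780) without, a ratio of 2.56 (2.43 to 2.70). Scg5 had a ratio of 3.88 (3.299 to 4.59), being in 12 of 14 cells with Gcg and in 2 of 5 without. Ptprn had a ratio of 2.54, in 14 of 14 and 3 of 5 cells, and Scg2 a ratio of 2.98, in 12 of 14 and 2 of 5 cells. Chga (0.89), Scg3 (0.60), Pcsk2 (1.37) and Cpe (1.25) differed by less than 2-fold. In all, 6 of the 10 genes were past 2-fold in either direction, beside 48.3% of all genes tested, so a difference of this size was common between these small groups.

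Plate moved with these groups, as 4 of the 5 cells without Gcg were on plate 8A and 9 of the 14 with Gcg on plate 8B. Within plate 8A, with 4 and 5 cells, Chgb stood at 10409.1 CPM without Gcg and 3744 CPM with it, Pcsk1 at 897 and 145.5 CPM, Pcsk1n at 251 and 1057 CPM, Scg5 at 8.35 and 135.2 CPM, and Ptprn at 50.4 and 553 CPM. Scg2 was 1.72-fold higher with Gcg there, short of 2-fold. Plate 8B held 1 cell without Gcg, whose Chgb of 20781 CPM lay above all 9 others on that plate and whose Pcsk1 (308 CPM), Pcsk1n, Scg5 and Ptprn lay within their range. Cells without Gcg had a median of 6766 genes and those with it 8246. How far plate and gene number play a part was not tested.

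Over the 19 endocrine-like cells, the strongest Spearman's rho of log2(CPM + 1) between members was -0.77, for Pcsk1 and Scg5. Next came 0.75 for Scg5 and Pcsk1n, -0.72 for Pcsk1 and Pcsk1n, 0.69 for Scg3 and Pcsk1, and 0.63 for Chgb and Pcsk1. Other pairs were weaker, with 0.02 for Chga and Chgb. The number of genes per cell correlated with the same genes, at -0.65 for Chgb, -0.55 for Pcsk1, -0.34 for Scg3, 0.53 for Scg5 and 0.59 for Pcsk1n. The proSAAS and 7B2 genes thus ran together and against Pcsk1 in these cells, which share libraries, plates and the spread in gene number.

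Scg5 had no count in 5 cells, and these were the 5 with the highest Fev, a transcription factor of endocrine precursors. Their Fev ran from 165.97 to 2018 CPM, while the 14 cells with Scg5 reached 146.8 CPM of Fev at most. Of these 5 cells 3 had no Gcg and 2 had it. Cell 8A C11 had several extreme values, with 20578 CPM of Chgb, the highest Chga (2865 CPM) and Pcsk1 (1597 CPM), the lowest Pcsk2 (1.31 CPM) and Pcsk1n (28.8 CPM), and no count of Scg5 or Ptprn. Cpa1, a gene of tip cells, was at 697 CPM in it and at 653 CPM in 8A E12, and at 80.5 to 154.1 CPM in 3 further endocrine-like cells.

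**Figure D2:**
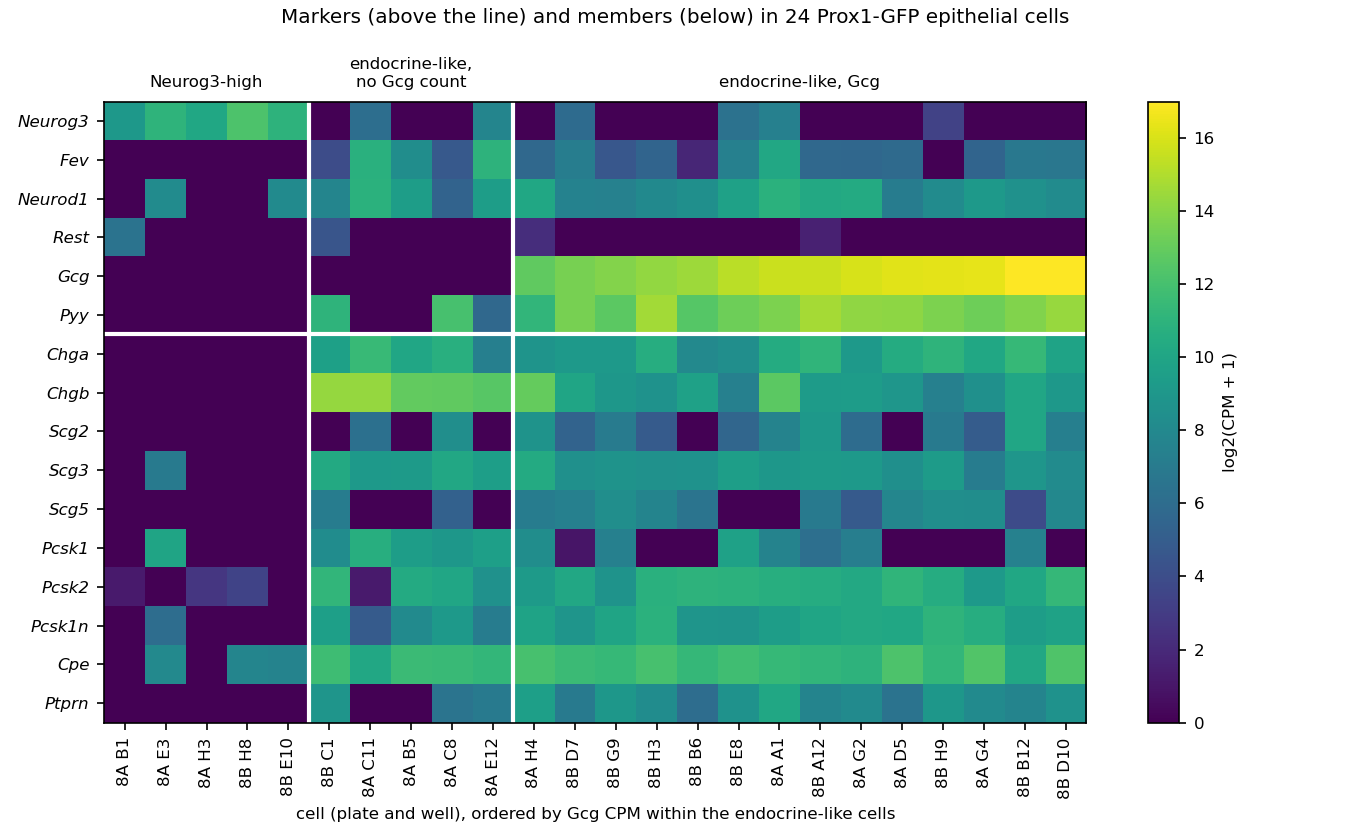
Heat map of log2(CPM + 1) in 24 Prox1-GFP epithelial cells, 1 column per cell named by plate and well and 1 row per gene, with markers above the white line and the 10 genes below it. From left to right stand 5 Neurog3-high cells, 5 endocrine-like cells without Gcg and 14 with Gcg in order of Gcg, and Chgb is at 6097 to 20781 CPM in the cells without Gcg and at 6745 and 8053 CPM in 2 cells with it.

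**Figure D3:**
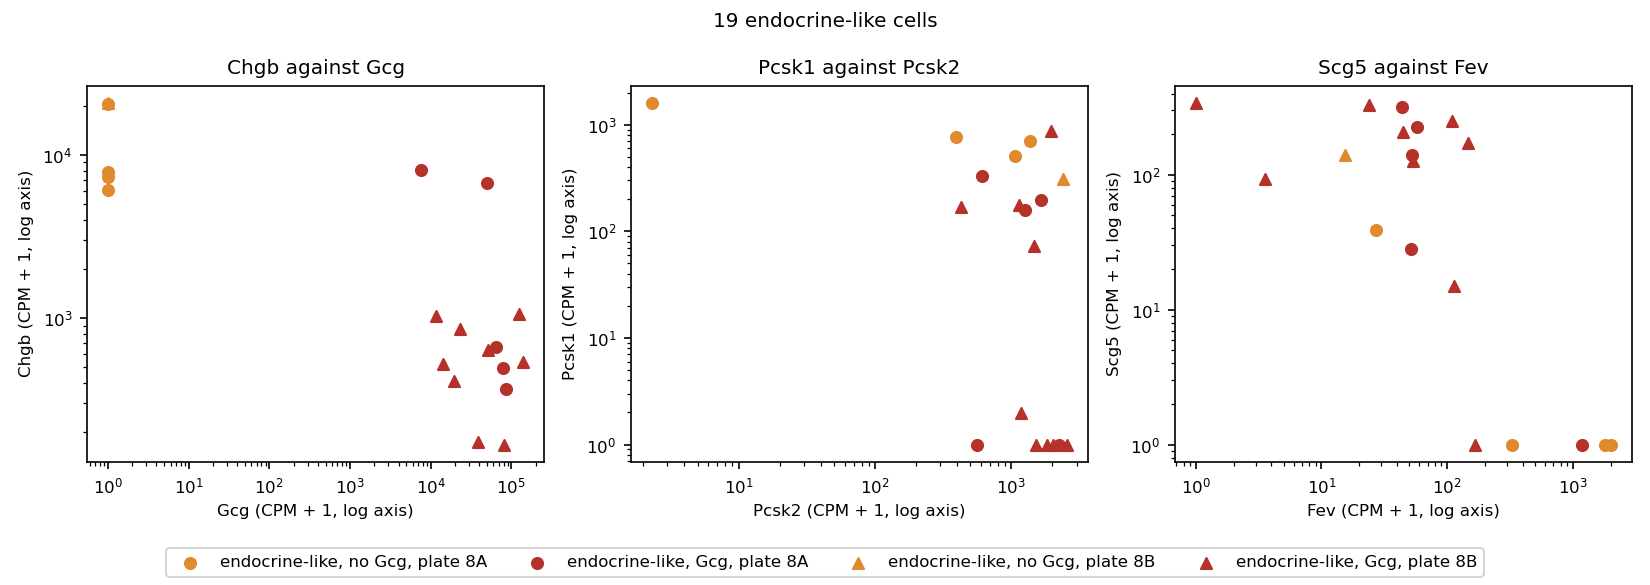
Chgb against Gcg, Pcsk1 against Pcsk2 and Scg5 against Fev in the 19 endocrine-like cells, as CPM + 1 on log axes, with colour for cells with or without Gcg and shape for the plate. The 5 cells without Gcg sit at Chgb of 6097 CPM or more, and the 5 cells without Scg5 lie at the right end of the Fev axis, at 165.97 CPM or more.

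Cells at the Neurog3 stage had little of the set. Outside the endocrine-like cluster 5 epithelial cells had Neurog3, the factor that commits progenitors to the endocrine fate, between 544 and 4923 CPM, and the next cell had 266 CPM. None of the 5 had a count of Chga, Chgb, Scg2, Scg5 or Ptprn. Cpe was present in 3 of them, at 261, 211 and 191.5 CPM, below the lowest endocrine-like cell (1149 CPM). In 1 cell, 8A E3, Pcsk1 stood at 977 CPM with Scg3 at 120 CPM and Pcsk1n at 66.8 CPM, together with Pax4 at 1210 CPM. In the remaining 83 epithelial cells Cpe was at 10 counts or more in 10 cells, up to 98.2 CPM, and 1 cell (8A G11) held 115.7 CPM of Chgb and 20.2 CPM of Scg3.

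The repressor Rest is known to hold neuronal and secretory genes silent through RE1 elements in tissues that do not use them. It stood at 1.65 CPM in endocrine-like cells and 156.6 CPM in the other epithelial cells (0.011-fold), and 16 of 19 endocrine-like cells had no count of it. Among the Neurog3-high cells 4 of 5 had none either, while 3 of the remaining 83 epithelial cells had none and their level was 164.4 CPM. In mesenchyme, Rest stood at 199.7 CPM, 178.8 CPM and 174.3 CPM in the Prox1-GFP, Nkx2.5-Cre;mTmG and Nkx3.2-Cre;mTmG lines. Of its corepressors, Rcor2 stood at 0.57-fold, Sin3a at 0.98-fold and Rcor1 at 1.1798-fold of the other epithelial cells, so 1 of the 4 genes was at least 2-fold lower, as were 24.5% of all genes tested.

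Other genes listed for the dense-core granule were mostly higher with the set. Of 17 measured, 16 were at 5 CPM or more in either group and 13 were at least 2-fold higher in endocrine-like than in other epithelial cells, with none 2-fold lower. Over all genes tested, 21.1% were at least 2-fold higher and 24.5% at least 2-fold lower. The median log2 ratio of the list was 4.40, against -0.10 over all genes tested. The largest ratios were those of Sez6l2, at 193.9 CPM with 1 count in the other cells (ratio 14427, interval 2587 to 570002), Resp18, at 296 CPM and at least 7340-fold, Scgn, a calcium sensor, at 192.7 CPM and at least 4779-fold, Vgf, a granin-like peptide precursor, at 16.8 CPM with 2 counts in the other cells (ratio 626, interval 171.5 to 5193), and Slc30a8, the granule zinc transporter, at 27.7 CPM (412-fold). The smallest were those of Nucb2 (1.39-fold), Sv2a (1.78-fold) and Atp6ap2 (1.99-fold).

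Exocytosis genes, which dock granules at the membrane and release them on calcium entry, were higher too, by less. Of 21 tested from 25 measured, 17 were at least 2-fold higher and 2 at least 2-fold lower, beside 21.1% and 24.5% of all genes. Their median log2 ratio was 3.05. Snap25, a SNARE of the plasma membrane, stood at 85.8 CPM against 0.17 CPM (493-fold), and Syt4 at 14.02 CPM against none (at least 348-fold). Unc13a (31.6-fold), Rab3a (26.3-fold) and Rab27a (25.7-fold), which tether and prime granules, came next. Sytl4 (0.19 CPM against 6.72 CPM) and Rab27b (1.59 CPM against 8.04 CPM) were lower, and Unc13b stood at 0.73-fold.

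Transcripts of peptides cut by these enzymes were higher in endocrine-like cells as well. Of 18 peptide hormones and neuropeptides 14 were tested. All 14 were at least 2-fold higher in endocrine-like cells, as were 21.1% of all genes tested. Gcg stood at 42543 CPM and took 14.1% of all counts in the highest cell, Pyy stood at 10895.8 CPM, Ppy at 401 CPM, Sst at 236 CPM, all from 1 cell with 10 counts or more, and Ins1 at 188.97 CPM, from 9 cells. Calca (67.9-fold), Cck (16.7-fold) and Pomc (3.65-fold) had the smallest ratios. Convertases and carboxypeptidases that act outside the regulated route had a median log2 ratio of 0.35. Of 10 tested, 2 were at least 2-fold higher, Pcsk6 (6.06-fold) and Cpd (2.45-fold), 2 were at least 2-fold lower, Cpxm1 (0.39-fold) among them, beside 21.1% and 24.5% of all genes, and 6 lay between, with Cpm (1.80-fold), Pcsk7 (1.62-fold), Furin (1.46-fold) and Pcsk4 (0.75-fold) among them.

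**Figure D4:**
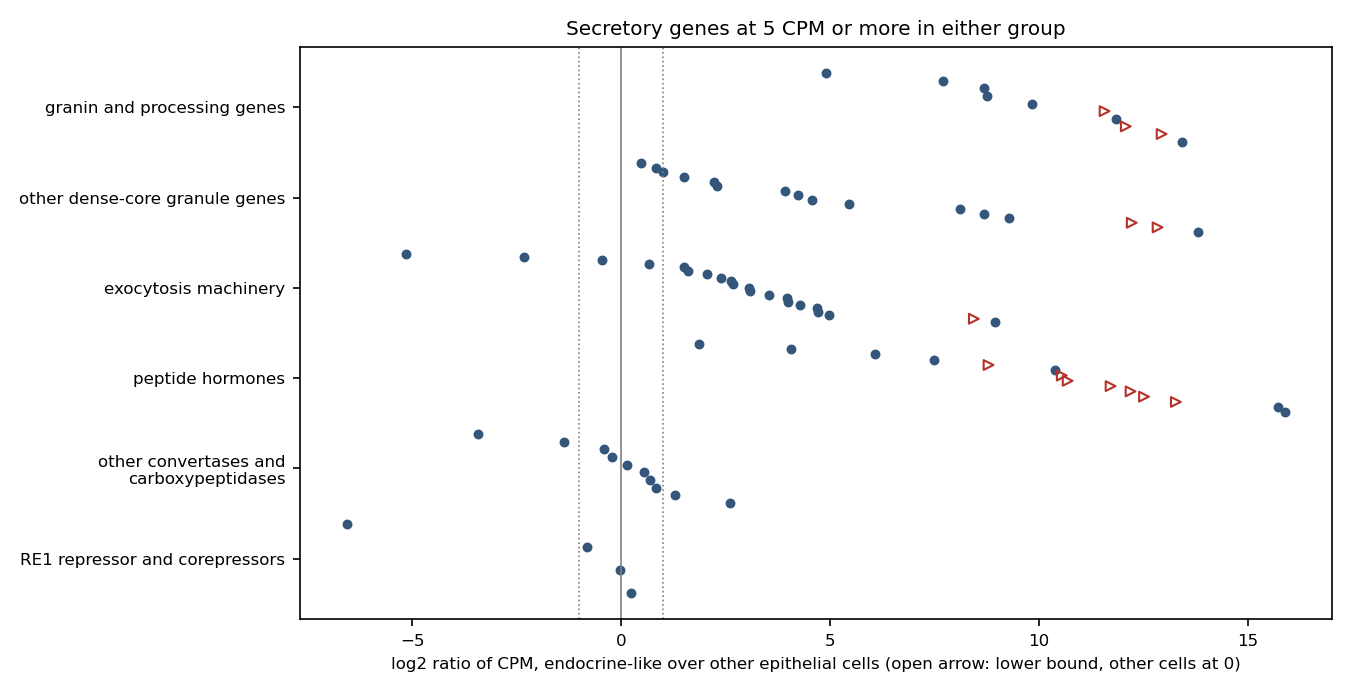
Log2 ratio of CPM in endocrine-like over other epithelial cells on the horizontal axis, for each gene at 5 CPM or more in either group, by list; filled points are measured ratios, open arrows are lower bounds where the other cells had no count, and dotted lines mark 2-fold. All 10 granin and processing genes lie right of the upper dotted line, and Rest lies furthest left, at 1.65 CPM against 156.6 CPM.

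Genes of other cell types that make granins were looked at in the same cells. Of 10 markers of neural crest, glia and neurons, Sox10, Foxd3, Phox2a, Prph, Stmn2 and Dbh were among those with no count in endocrine-like cells. Th, the enzyme that starts catecholamine synthesis, stood at 147.04 CPM, at 10 counts or more in 11 of 19. The summed list ran from 0 to 900.0 CPM in single endocrine-like cells and from 0 to 85.1 CPM in the other epithelial cells. Of 6 markers of stomach or gut epithelium, Sox2, Cdx1, Cdx2, Tff1 and Tff2 had no count. Gast, which encodes gastrin, was at 10 counts or more in 16 of 19 cells, with 5098 CPM in 8A A1 and at most 527 CPM in the others. Of 12 mesenchymal markers 3 were at 5 CPM or more in endocrine-like cells, Col1a2 first at 132.4 CPM. The part of cells with Th, Gast or Col1a2 in the levels of the 10 genes was not tested.

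Across the epithelial cells, the genes whose levels ran most like the mean log2(CPM + 1) of the set were Pnmal1 (Spearman's rho 0.69), Cck (0.69), Vwa5b2 (0.68), Resp18 (0.67) and Neurod1 (0.67), out of 14419 genes with a count in at least 10 of these cells. For the 10 genes themselves, rho with the mean ran from 0.57 for Scg5 and Pcsk1 to 0.81 for Cpe. The cells share libraries and most hold 0 of each gene, so the values describe which cells hold a gene at all.

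Mesothelium, the sheet of cells that covers the organ, carried Cpe and Scg5. In the Nkx3.2-Cre;mTmG line Cpe stood at 106.7 CPM in mesothelial cells against 17.2 CPM in mesenchyme (6.20-fold, 5.84 to 6.57), at 10 counts or more in 19 of 22 cells (86.4%, 65.1 to 97.1). Of these 22 cells 19 were on plate 7B, where mesenchyme also had more Cpe, and the ratio was 3.35 there and 15.02 on plate 7A. In the Nkx2.5-Cre;mTmG line it stood at 95.5 CPM against 28.2 CPM (3.38-fold, 3.07 to 3.71), in 3 of 5 cells. Scg5 stood at 9.95 CPM, in 5 of 22 Nkx3.2-Cre;mTmG mesothelial cells at 10 counts or more, all on plate 7B, and at 51.2 CPM, in 2 of 5 Nkx2.5-Cre;mTmG mesothelial cells, both on plate 6B. Scg2, Scg3, Pcsk1 and Ptprn had no count in mesothelial cells, and Chga and Pcsk2 reached 10 counts in none of them. Chgb was at 66.1 CPM in the Nkx3.2-Cre;mTmG mesothelial cell 7B A2, and Pcsk1n at 24.3 CPM in 7B G1. Each of these cells held all mesothelial counts of its gene.

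Within mesenchyme, Cpe was uneven between clusters made without it. The highest share of cells at 10 counts or more was 45.8% (25.6 to 67.2) in a cluster of 24 cells led by Zmat4 and Gabrb1, of which 16 came from Prox1-GFP, and the next was 32.4% (18.01 to 49.8) in a cluster of 37 cells led by Acta2, Tagln and Tnc, genes of contractile cells, of which 30 came from Nkx3.2-Cre;mTmG. The lowest was 10.8% (3.03 to 25.4) in a cluster of 37 cells. The median total count of the first was 721862, lower than that of any other cluster.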

How the data were processed

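The values are estimated counts per gene and cell, which the authors deposited without normalization. Per the labels and the methods of the study, reads were trimmed with Trim Galore 0.6.5, quantified with kallisto on GRCm38 and summed to genes, and the annotation release is not given in the sources used here. Of the values above 0, 36.0% are not whole. Cells under 1000 genes or 100000 counts, or over 30% mitochondrial, were left out, and no doublet caller was run. Cells were epithelial where the mean log2(CPM + 1) of epithelial markers exceeded that of mesenchymal markers, and mesothelial or blood cells were set apart by their own markers. No kept epithelial or mesenchymal cell lay within 1 log2 unit of that border. Clusters came from Seurat 5.3.0 (20 components, resolution 1.9).

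A gene counted as higher at a ratio of summed CPM of 2 or more, among genes at 5 CPM or more in either class. A class without counts was set at 3 counts, and such ratios are written as bounds. Intervals are of the exact Poisson or conditional binomial form on estimated counts, or Clopper-Pearson on numbers of cells. Where no cell held a gene, the share allowed is 3 cells of the total, not an exact interval. The 2-fold calls and ratio intervals were tested on Poisson counts simulated with known ratios. These had the same rate per gene in all cells of a group. The test therefore cannot show how the intervals hold under the spread between real cells. Symbols, positions and transcript lengths are those of GENCODE M21.

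The 10 genes and all lists were chosen with earlier results of these data known. All 10 are named throughout. From each list, up to 5 genes with the largest and 3 with the smallest ratio between endocrine-like and other epithelial cells are named, and the 5 genes most like the set by Spearman's rho. A few genes that these rules or lists would name are not reported here. The labels list 192 cells of each line. Alternatives were another cell filter, other summaries and scalings (edgeR 4.0.16 for TMM factors), thinning, single plates and other classes.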

Additional observations from a re-analysis of the deposited data

How the results depend on the processing

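The count of genes 2-fold higher was 10 of 10 under 13 of 14 alternatives for each comparison with mesenchyme, among them the stricter cell filter, TMM scaling, thinning, each plate alone, leaving out the highest cell of each gene, a fold of 4 and totals without peptide hormones, the last chosen after seeing the data. With the median of single-cell CPM it was 0 of 10 in each of the 3, since the median epithelial cell was under 5 CPM for each gene. Between endocrine-like and other epithelial cells all 15 alternatives gave 10 of 10, among them 26 cells with at least 4 of 12 endocrine markers. Clusters of all cells put the endocrine-like cells in a cluster of 66 and could not give this comparison. None of 543 single ratios changed sign. The share of epithelial cells with a count of Pcsk2, 56.1%, was 17.8% at 10 counts or more and 27.1% after thinning to 100000 counts. Between endocrine-like cells with and without Gcg, 7 alternatives chosen after seeing the data gave 4 higher genes, except plate 8A alone with 3, and each gave 2 lower. No paired analysis was possible because the labels give no replicate numbers and no test was made. With 1 sample per line, the spread between embryos is unknown, and 19 endocrine-like cells limit what is said of their differences.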
